A study of Homo sapiens with 4 samples.

Results

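The solute carrier family 25 (SLC25) comprises the carriers that move nucleotides, phosphate, amino acids, organic acids, cofactors and metals, mostly across the inner mitochondrial membrane. They were selected as every row of the RNA tables whose gene symbol starts with SLC25A, which gave 43 genes of 13092 listed in either of 2 libraries. RNA was sequenced from RKO, an established cell line of a human colon carcinoma, in 1 library from cells overexpressing HADH-S (genotype label HADH-S overexpression) and 1 from control cells (genotype label WT). HADH oxidises hydroxyacyl-CoA during the mitochondrial breakdown of fatty acids, HADH-S is the isoform that the series title calls nuclear, and the study asked which genes respond to it in colorectal cancer cells. Both libraries share the RKO background; the labels used here do not give the vector, the clone, the culture conditions or the time of overexpression. The HADH-S immunoprecipitate and its input were not analysed here.

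Most of the carriers are built from a repeated module and alternate between a state open to the cytosol and a state open to the matrix, exchanging one substrate for another or moving it with a proton. They are made in the cytosol and inserted by the TIM22 complex. In tumour cells they are known for supplying ATP export, citrate for lipid synthesis, aspartate for nucleotide synthesis, iron for heme and iron-sulfur clusters, and acylcarnitines for the pathway in which HADH acts.

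The library with HADH-S held 6963608 reads assigned to genes and the control held 6773421, of which 22991 and 21621 fell on SLC25A genes. HADH was at 54.4 RPKM (reads per kilobase of transcript and per unit of library size) with HADH-S and at 26.5 in the control, which is the direction of the labels. Of 12 colonic epithelial markers, 6 were listed: EPCAM, KRT8, KRT18, CDX2, CA2 and SLC26A2, with KRT18 at 93.8 and 91.7 RPKM. CDH1, KRT20, VIL1, CDX1, SLC26A3 and LGALS4 were listed in neither table. Of the markers of fibroblasts, endothelium, leukocytes, muscle and brown fat, none exceeded 0.0963 RPKM, and of the liver markers only CPS1 was above that, at 1.08 with HADH-S and 1.496 in the control. Each condition had 1 library, so nothing here could be checked against replicates and no p-value is given. Ratios carry a 95% counting interval from the reads, which covers counting error only. "Higher" and "lower" describe these 2 libraries, and in bulk RNA a change in the number of expressing cells and one in RNA per cell cannot be told apart.

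The SLC25A genes differed little between the libraries. Of the 43, 38 had a mean of at least 1 RPKM over both libraries. Among these 38, 0 were higher or lower by 2-fold on the log2(RPKM + 1) scale, where 0.3% of all 10331 genes at that level were higher and 0.0484% lower, and 0 passed a fold of 1.5, where 1.47% of all genes were higher and 0.436% lower. A smaller limit of 0.32 on the log2 scale was passed by 2 members that were higher, the iron carrier SLC25A28 and the glutamate carrier SLC25A22, and by 1 that was lower, SLC25A43, which is 5.26% and 2.63% of the 38 against 7.98% and 3.65% of all genes. The counting interval of the ratio lay wholly above 1 for 7 members (18.4%) and wholly below 1 for 5 (13.2%), against 13.8% and 11.6% of all genes. Both shares were near the background. Since 25.4% of all genes had an interval that left out 1, the interval alone does not single out a gene. The median log2 value was 0.08 over the 38 members and 0.01 over all genes, and 23 of the 38 were higher with HADH-S (60.5%, against 52.2% of all genes).

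**Figure D1:**
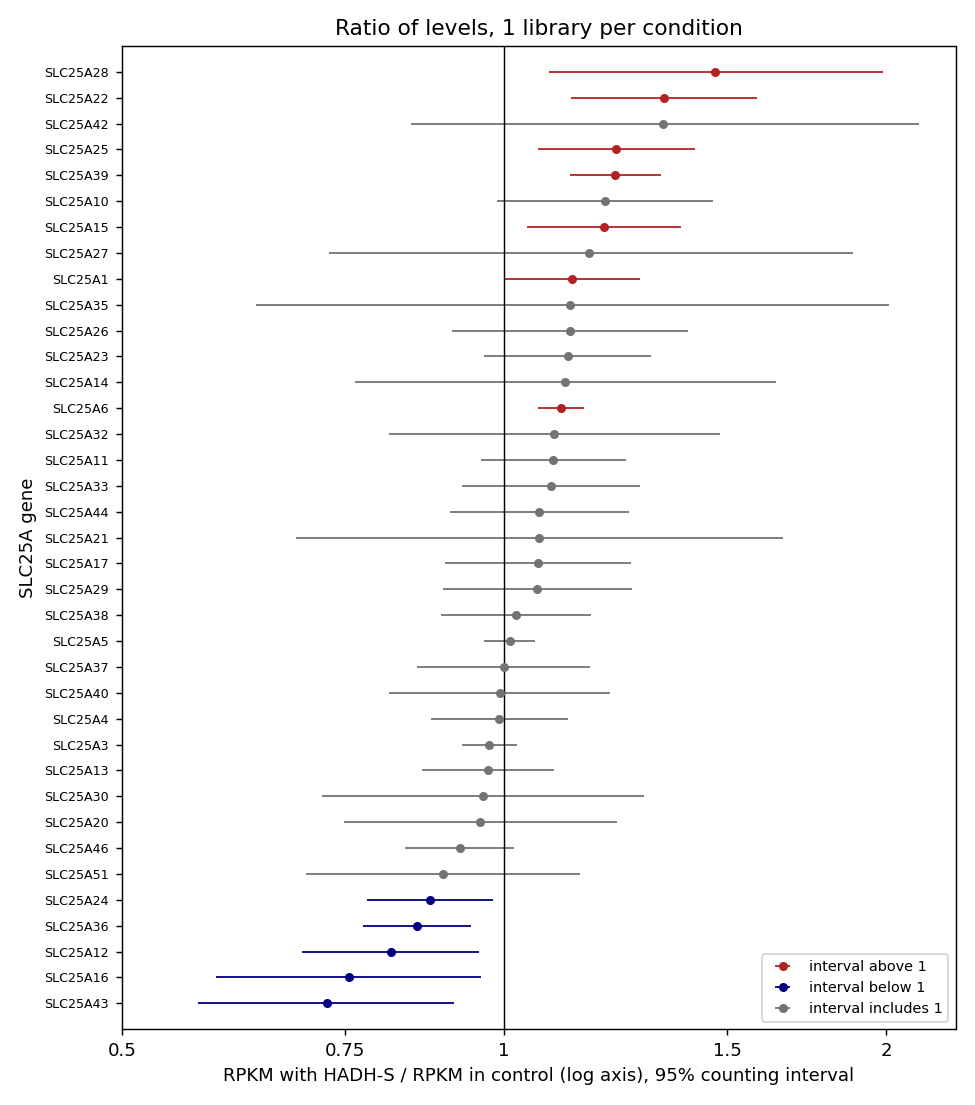
Ratio of RPKM with HADH-S to RPKM in the control (log axis) for 37 of the 38 SLC25A genes with a mean of at least 1 RPKM, ordered by ratio; bars are 95% counting intervals, and colours mark whether the interval lies above, below or across 1. Ratios ran from 0.725 for SLC25A43 to 1.47 for SLC25A28, and 25 of the 37 intervals drawn included 1.

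The sequences upstream of the genes at both ends of this order are shown to place the values in their genomic setting, as 250 bases before a RefSeq transcript start (GRCh38.p14), written 5' to 3' along the gene. SLC25A28 had the largest ratio, SLC25A22 the next and SLC25A43 the smallest. In SLC25A28 (chr10:99620440-99620689, minus strand) capitals mark the CCAAT box, in either orientation, which occurs 3 times. In SLC25A22 (chr11:796239-796488, minus strand, 1 of its RefSeq starts) capitals mark the core of the interferon-stimulated response element. That core (GAAA, any 2 bases, GAAA, in either orientation) occurs 1 time, and the other 3 windows of SLC25A22 hold no match to it. The SLC25A22 window shown also holds a CCAAT box, left in lower case because only the interferon core was marked there. In SLC25A43 (chrX:119399086-119399335, plus strand) the CCAAT box occurs 0 times, so the window has no capitals.
SLC25A28: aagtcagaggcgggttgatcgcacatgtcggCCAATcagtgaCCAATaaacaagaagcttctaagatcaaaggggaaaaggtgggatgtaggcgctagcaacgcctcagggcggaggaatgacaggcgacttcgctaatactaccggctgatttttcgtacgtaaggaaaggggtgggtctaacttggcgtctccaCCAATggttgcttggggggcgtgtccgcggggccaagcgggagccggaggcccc
SLC25A22: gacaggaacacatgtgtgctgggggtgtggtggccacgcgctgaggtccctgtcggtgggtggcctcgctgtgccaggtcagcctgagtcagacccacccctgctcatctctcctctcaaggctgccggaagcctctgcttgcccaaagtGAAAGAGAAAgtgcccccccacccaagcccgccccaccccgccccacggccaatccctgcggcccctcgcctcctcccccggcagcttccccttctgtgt
SLC25A43: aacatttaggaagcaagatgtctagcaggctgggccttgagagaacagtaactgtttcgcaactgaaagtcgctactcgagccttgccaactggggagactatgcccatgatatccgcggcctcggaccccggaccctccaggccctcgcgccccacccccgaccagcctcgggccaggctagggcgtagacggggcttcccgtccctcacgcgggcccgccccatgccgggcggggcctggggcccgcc

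Promoter windows were found for 35 of the 43 genes, 45 windows in all, and were compared with the 35116 windows of all RefSeq genes, coding and non-coding. A CCAAT box (CCAAT or ATTGG) was in 46.7% of the carriers' windows and in 32% of all windows. By gene, 19 of the 35 carriers had one in at least 1 window, as did 5 of the 7 with an interval above 1 (SLC25A1, SLC25A6, SLC25A22, SLC25A25 and SLC25A28), and 1 of the 4 with an interval below 1 and a window (SLC25A36). For this and the other motifs, no share by gene was computed over all RefSeq genes. A gene with several windows also has more places for a match, so counts by gene cannot be read as high or low. The core of the antioxidant response element (TGACNNNGC or its reverse complement) was in 15.6% of the carriers' windows and in 10.9% of all. Its 7 genes included 4 with an interval above 1 (SLC25A1, SLC25A22, SLC25A25 and SLC25A39) and 1 below (SLC25A24). The E-box CACGTG was in 15.6% against 6.34%, in 7 genes, of which 0 had an interval above 1 and 1, SLC25A36, had one below. The interferon core was in 2.22% against 3.02%, only in SLC25A22 among the carriers with a window. The NRF1 site (GCGC, any base, TGCGC, or its reverse complement) was in 4.44% against 5.07%, in SLC25A3 and SLC25A11, and the sterol response core (TCACNCCAC or its reverse complement) in 2.22% against 0.883%, in SLC25A40. These matches describe letters in short windows; the motifs were chosen with the values known, and promoters of coding genes differ in base composition from the other windows.

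By summed RPKM, the nucleotide carriers made up more than any other group, at 981 of 1761 with HADH-S and 931 of 1679 in the control. SLC25A6 and SLC25A5, the ADP/ATP translocases of most dividing tissues, ranked first and second in both libraries, and with the phosphate carrier SLC25A3 they held 65.2% of the summed RPKM of the family with HADH-S and 65.8% in the control. SLC25A6, which lies in the pseudoautosomal region (chrX:1386152-1392113), was at 470.5 RPKM with HADH-S and 424 in the control. Its ratio was 1.11 (interval 1.06 to 1.16), the narrowest interval above 1 in the family, from 4754 and 4170 reads. The difference was small, with a log2 value of 0.15 that 24.1% of all genes reached or passed. SLC25A5 (chrX:119468444-119471396) was at 409 and 404 RPKM, with a ratio of 1.01 (0.965 to 1.06), and overlaps the non-coding SLC25A5-AS1. SLC25A4, the form of heart and skeletal muscle, was far lower at 16.7 and 16.8 RPKM, with a ratio of 0.992 (0.876 to 1.12). SLC25A5 and SLC25A6 are close paralogs with 9 and 6 processed or other pseudogene copies by symbol in RefSeq, so how their reads were divided is uncertain. The germ cell form SLC25A31 was listed in neither table.

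**Figure D2:**
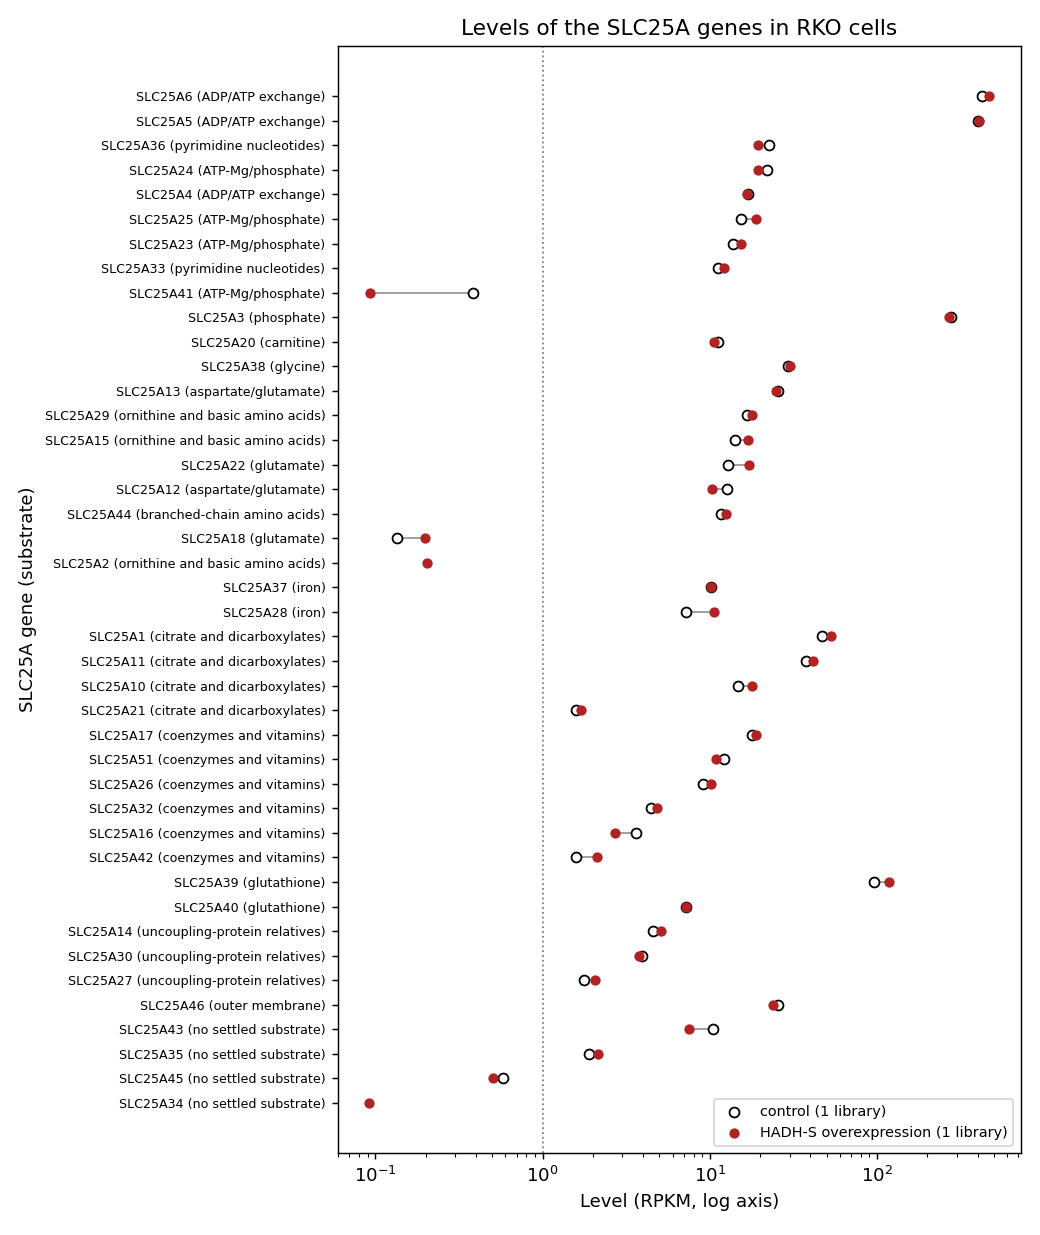
RPKM (log axis) of 42 of the 43 SLC25A genes in the control library (open circles) and the HADH-S library (filled circles), grouped by substrate; genes at 0 in the control have no open circle, and the dotted line marks 1 RPKM. Levels run from under 1 RPKM for SLC25A2, SLC25A18, SLC25A34, SLC25A41 and SLC25A45 to 470.5 RPKM for SLC25A6, and the 2 circles of a gene lie close together compared with the distances between genes.

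The calcium-regulated carriers that exchange ATP-Mg for phosphate, and so set the adenine nucleotide pool of the matrix, did not differ in the same direction. SLC25A25 was at 18.9 RPKM with HADH-S and 15.4 in the control (ratio 1.23, interval 1.06 to 1.41). SLC25A24 was at 19.3 and 22.1 RPKM (ratio 0.875, interval 0.780 to 0.981), and SLC25A23 was at 15.5 and 13.8 RPKM (ratio 1.12, interval 0.965 to 1.31). SLC25A24, the most abundant of the 3 in the control, was thus about level with SLC25A25 in the library with HADH-S. SLC25A41 was grouped here with them by its substrate, ATP-Mg and phosphate, and not by regulation through calcium. It had 1 read against 4, at 0.0936 and 0.385 RPKM, with an interval of 0.00494 to 2.46, and its gene overlaps SLC25A23.

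The carriers of pyrimidine nucleotides, which bring precursors of mitochondrial DNA and RNA into the matrix, also went apart. SLC25A36 was at 19.4 RPKM with HADH-S and 22.7 in the control (ratio 0.854, interval 0.774 to 0.942), and SLC25A33 was at 12.2 and 11.2 RPKM (ratio 1.09, interval 0.927 to 1.28). Of the 8 nucleotide carriers at a mean of at least 1 RPKM, 2 had an interval above 1, 2 below and 4 across it, and their median log2 value was 0.06.

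Phosphate and carnitine each have 1 main carrier, and neither differed beyond counting error. SLC25A3 (chr12:98593686-98606367), which imports the phosphate used by ATP synthase and also carries copper, was at 269 RPKM with HADH-S and 276 in the control, with a ratio of 0.974 (0.927 to 1.02) from 3143 and 3139 reads. SLC25A20 (chr3:48856926-48898882), which brings acylcarnitines to the matrix for beta-oxidation, was at 10.7 and 11.1 RPKM, with a ratio of 0.958 (0.748 to 1.23). At 132 and 134 reads the interval of SLC25A20 does not separate these levels.

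Of the 7 amino acid carriers at a mean of at least 1 RPKM, 2 had an interval above 1, 1 below and 4 across it, with a median log2 value of 0.08. SLC25A22 (chr11:790475-798281), which imports glutamate with a proton, was at 17.2 RPKM with HADH-S and 12.8 in the control (ratio 1.34, interval 1.13 to 1.58, from 334 and 243 reads). Its log2 value of 0.39 was reached or passed by 5.03% of all genes, and it overlaps the coding gene PANO1. SLC25A18, the other glutamate carrier, had 3 and 2 reads. SLC25A15 (chr13:40789611-40812460), the ornithine/citrulline exchanger of the urea cycle, was at 16.9 and 14.1 RPKM (ratio 1.199, interval 1.04 to 1.38), and 5 RefSeq pseudogenes carry its symbol. Its paralog SLC25A2 had 2 and 0 reads, both under the 3 reads that a count of 0 allows, so no fold is given.

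The aspartate/glutamate carriers of the malate-aspartate shuttle, which moves reducing equivalents from cytosolic NADH into the matrix, had an interval below 1 in 1 of 2 cases. SLC25A12 (aralar, chr2:171783405-171894244) was at 10.3 RPKM with HADH-S and 12.7 in the control (ratio 0.814, interval 0.693 to 0.957). SLC25A13 (citrin), the more abundant of the pair, was at 24.8 and 25.6 RPKM (ratio 0.971, interval 0.861 to 1.09). The remaining amino acid carriers had ratios near 1. SLC25A38, which supplies glycine for heme synthesis, was at 30.1 and 29.4 RPKM (ratio 1.02, interval 0.891 to 1.17). SLC25A29, a carrier of basic amino acids that overlaps YY1, was at 17.8 and 16.8 RPKM (ratio 1.06, interval 0.895 to 1.26), and SLC25A44, a carrier of branched-chain amino acids, at 12.5 and 11.7 RPKM (ratio 1.07, interval 0.907 to 1.255).

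The iron carriers, the mitoferrins, differed from each other. SLC25A28 (mitoferrin 2, chr10:99610522-99659286), the broadly expressed form and a gene that is commonly counted among interferon-responsive genes, was at 10.6 RPKM with HADH-S and 7.26 in the control. Its ratio of 1.47 (1.08 to 1.99) was the largest in the family but rests on 113 and 75 reads, its 99% interval included 1, and its log2 value of 0.49 was reached or passed by 2.49% of all genes. By gene span, introns included, it overlaps the non-coding genes SLC25A28-DT and LOC105378450. Shared exons were not checked, and any shared reads could not be told apart without a known strand setting. SLC25A37 (mitoferrin 1), the form of red cell precursors, was at 10.1 RPKM in both libraries, with a ratio of 1.00 (0.855 to 1.17). SLC25A28 was at 0.715 times the RPKM of SLC25A37 in the control and about level with it, at 1.05 times, with HADH-S. No interval was computed for these 2 level ratios, so a reversed order is not shown.

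The carriers of citrate and dicarboxylates were all higher with HADH-S, 4 of 4, against 52.2% of all genes. Only 1 of the 4 intervals lay above 1, against 13.8% of all genes. Their median log2 value was 0.15, and 0.088 after a trend with transcript length over all genes was removed. SLC25A1 (chr22:19175581-19178736), which exports citrate for cytosolic acetyl-CoA and lipid synthesis, was at 53.3 RPKM with HADH-S and 47.1 in the control (ratio 1.13, interval 1.002 to 1.28), and 5 RefSeq pseudogenes carry its symbol. Its interval included 1 once the libraries were rescaled to a median log2 value of 0. SLC25A10, the dicarboxylate carrier that exchanges malate or succinate for phosphate, was at 17.8 and 14.8 RPKM (ratio 1.201, interval 0.988 to 1.46). SLC25A11, the oxoglutarate/malate carrier of the malate-aspartate shuttle, was at 41.4 and 37.9 RPKM (ratio 1.09, interval 0.959 to 1.248). SLC25A21, which carries oxoadipate and oxoglutarate, was low at 1.70 and 1.59 RPKM (ratio 1.07, interval 0.686 to 1.66).

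Among the remaining carriers, SLC25A39 (chr17:44319628-44324823), needed for mitochondrial import of glutathione, was the fourth most abundant member in both libraries. It was at 118 RPKM with HADH-S and 96.4 in the control, with a ratio of 1.22 (1.13 to 1.33) from 1298 and 1032 reads. Its homologue SLC25A40 was at 7.19 and 7.24 RPKM, with a ratio of 0.992 (0.812 to 1.21). Of the 7 listed carriers of coenzymes and vitamins, 0 had an interval above 1 and 1 had one below. That was SLC25A16 (chr10:68477998-68527523), linked to coenzyme A, at 2.73 and 3.61 RPKM (ratio 0.755, interval 0.593 to 0.960). The intervals of the NAD carrier SLC25A51, the S-adenosylmethionine carrier SLC25A26, the folate and flavin carrier SLC25A32, the coenzyme A carrier SLC25A42 and the peroxisomal SLC25A17 included 1, with ratios from 0.896 for SLC25A51 to 1.33 for SLC25A42.

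SLC25A43 (chrX:119399336-119454478), a carrier without a settled substrate, had the smallest ratio among the 38. It was at 7.56 RPKM with HADH-S and 10.4 in the control (ratio 0.725, interval 0.575 to 0.914, from 132 and 177 reads), and 1.55% of all genes had a log2 value as low as its -0.42 or lower. SLC25A35, also without a settled substrate, was at 2.15 and 1.903 RPKM with an interval that included 1. SLC25A45 had 8 and 9 reads, and SLC25A34 had 2 and 0. The uncoupling-protein relatives SLC25A14, SLC25A27 and SLC25A30 lay between 1.77 and 5.13 RPKM, and all 3 intervals included 1. SLC25A46, which acts in the outer membrane on mitochondrial shape, was at 23.8 and 25.8 RPKM (ratio 0.923, interval 0.836 to 1.02). SLC25A47, SLC25A48, SLC25A52 and SLC25A53 were listed in neither table and were not evaluated.

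Carriers of the same subgroup were then compared with each other, since the ratio of 2 ratios does not depend on how the libraries are scaled. The citrate and dicarboxylate carriers and the uncoupling-protein relatives were each taken as 1 subgroup, so not every pair shares a substrate. In each of 20 pairs the gene with the larger ratio was put first, so the direction is fixed by the order, and 5 pairs had a counting interval above 1. No share over pairs of other genes was computed, so 5 of 20 cannot be read as high or low. SLC25A28 against SLC25A37 gave 1.47 (1.04 to 2.07). SLC25A25 and SLC25A23 against SLC25A24 gave 1.402 (1.17 to 1.68) and 1.28 (1.06 to 1.55), SLC25A33 against SLC25A36 gave 1.28 (1.06 to 1.54), and SLC25A6 against SLC25A5 gave 1.10 (1.03 to 1.17). SLC25A39 against SLC25A40, at 1.23 (0.992 to 1.53), and SLC25A13 against SLC25A12, at 1.19 (0.974 to 1.46), had intervals that included 1. The 20 pairs share genes, and the intervals again hold counting error only.

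**Figure D3:**
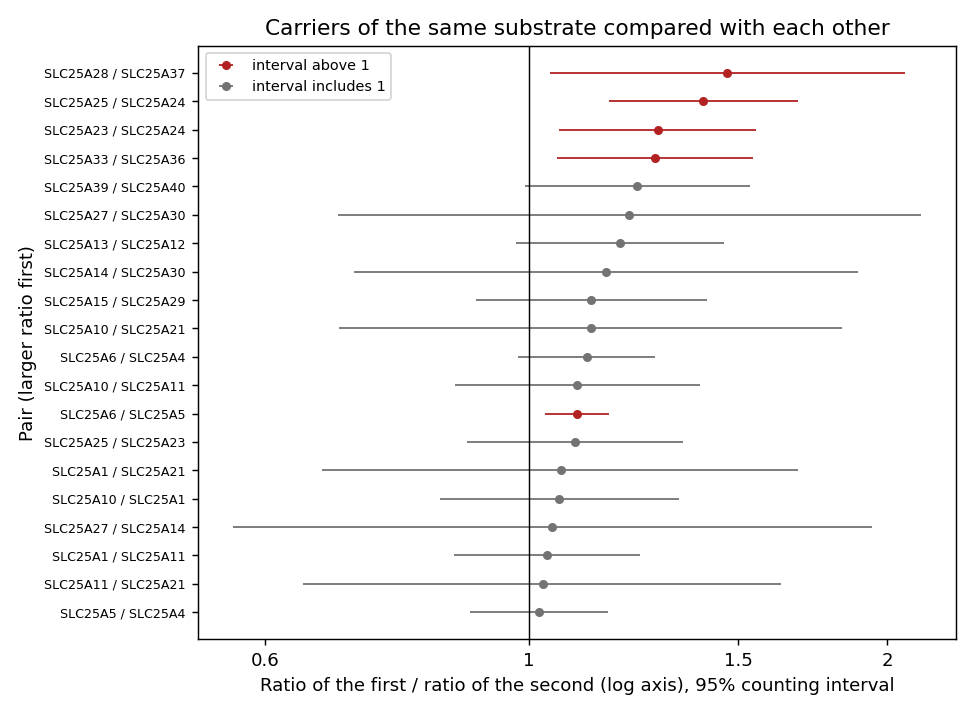
Ratio of ratios (log axis) for 20 pairs of SLC25A genes of the same subgroup, with the larger ratio first. Bars are 95% counting intervals, and not every pair shares a substrate. The 5 pairs with an interval above 1 include the mitoferrins SLC25A28 and SLC25A37 at 1.47 and 3 pairs that hold SLC25A24 or SLC25A36.

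Transcript length moved with these differences. The 7 carriers with an interval above 1 had a median transcript length of 1581 nt (1451 to 3821) and the 5 with an interval below 1 one of 4249 nt (2507 to 6581), against 3148 nt over all genes at that level. Spearman's rho between length and log2 value was -0.40 over the 38 carriers and -0.19 over the 10331 genes, given as a description, since all points share the same 2 libraries. After the trend over all genes was removed, the median of the 38 carriers was 0.04 and that of all genes -0.01, and 36 of the 38 kept their sign; SLC25A5 and SLC25A38 did not. SLC25A28 was then at 0.43, SLC25A22 at 0.36 and SLC25A43 at -0.45. The shorter transcript came first in 15 of the 20 pairs, and in 4 of the 5 with an interval above 1.

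**Figure D4:**
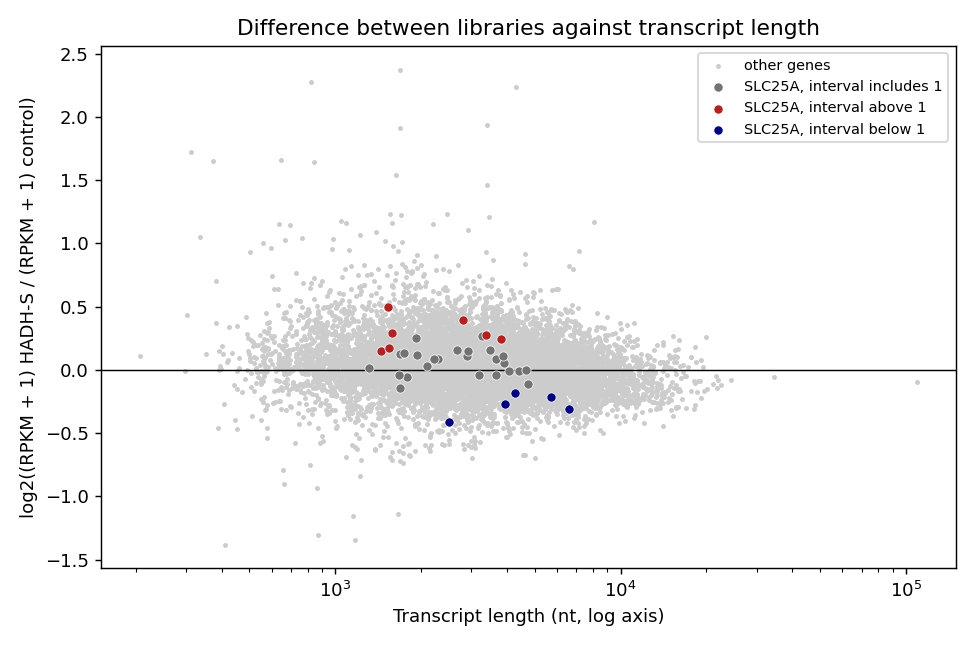
Log2 value (HADH-S over control, on the log2(RPKM + 1) scale) against transcript length (nt, log axis) for genes with a mean of at least 1 RPKM; grey dots are other genes and larger dots SLC25A genes, coloured by their counting interval. The carriers lie inside the cloud of all genes, between -0.42 and 0.49.

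Genes related to the carriers were examined from lists that were chosen with earlier results of these data known. The counts of each list stand against 52.2% of all genes higher with HADH-S, 13.8% with an interval above 1 and 11.6% with one below. Of the relatives of the family under other names, UCP2 was at 26.6 and 24.4 RPKM and MTCH1 at 14.2 and 13.4; MTCH2 was the third measured, and 0 of the 3 intervals left out 1. Of the 16 genes that import carrier proteins (TOM and TIM22 pathway), 14 were higher and 2 lower with HADH-S, 4 intervals lay above 1 and 0 below, and the median log2 value was 0.14. The largest values there were 0.39 for TIMM8B (51.4 and 39.1 RPKM), a small chaperone of the intermembrane space, and 0.35 for the TIM22 subunit TIMM29 (14.5 and 11.2 RPKM), whose interval of 0.996 to 1.69 included 1. The others with an interval above 1 were TOMM40, TOMM6 and TIMM13. Their median transcript length was 1506 nt, shorter than that of all genes. Of 16 other mitochondrial transporters, 2 intervals lay above 1, those of VDAC1 and LETM1, and 1 below, that of SFXN2 (median 0.07). The largest values were those of SFXN2 (-0.26) and SFXN3 (0.19), of the sideroflexin family of amino acid transporters, and the interval of SFXN3 included 1. Of 18 ATP synthase subunits and regulators, 4 lay above and 2 below (median 0.06), and the largest values were 0.44 for ATP5ME and 0.28 for ATP5PF, both with an interval above 1.

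The enzymes that work beside single carriers were read against the same shares of all genes. Of the 4 cytosolic and mitochondrial enzymes of the malate-aspartate shuttle, 1 interval lay above 1, that of MDH2, and 1 below, that of MDH1 at a log2 value of -0.17 (median 0.06); GOT1 was at 0.18 with an interval that included 1. Of 6 enzymes on the citrate route and the steps next to it, 0 lay above and 1 below (median -0.0016). That was IDH1, which oxidises isocitrate, at 51.1 and 66.9 RPKM; ACACA, which carboxylates acetyl-CoA, was at -0.07 with an interval that included 1. Of 6 genes of the carnitine pathway, 3 lay above and 0 below (median 0.21). SLC22A5, the carnitine importer of the plasma membrane, was at 4.52 and 2.79 RPKM (ratio 1.62, interval 1.03 to 2.58), from only 55 and 33 reads. The others above 1 were CRAT (ratio 1.22, interval 1.08 to 1.39, from 553 and 440 reads) and CPT1A (ratio 1.17, interval 1.006 to 1.35, from 405 and 338 reads). CPT1C was at -0.40 with an interval across 1. Of 5 mitochondrial one-carbon enzymes, 4 were measured and 0 intervals left out 1, with MTHFD2L at 0.26 and MTHFD1L at 0.09. Of 12 genes of iron-sulfur cluster and heme synthesis, 3 lay above 1 and 1 below (median 0.08), with the ferredoxin reductase FDXR at 18.4 and 13.3 RPKM (ratio 1.38, interval 1.14 to 1.69) and the cochaperone HSCB at 14.4 and 18.7 RPKM (ratio 0.771, interval 0.596 to 0.996).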

How the data were processed

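Per the file headers, the authors deposited 1 RPKM value per gene and library; rows carry a symbol, Ensembl identifiers and a transcript length. Per the submitters' processing notes, shared by all samples, fastp 0.23.2, SAMtools 1.9, MACS2 1.4.2, ChIPseeker and GRCh38 were used; which aligner and counter made the RNA values, and with which annotation or strand setting, is not given in the sources used here. RPKM times length gave whole reads in each library (largest deviation 2.4e-05 reads). Each row lists 1 transcript and its length, so a level depends on the length listed, and how reads were assigned is not given. Overlaps were taken from gene spans with introns, shared exons were not checked, and any shared reads cannot be separated. A gene missing from 1 table was taken as 0 reads there.

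Values computed here were the RPKM ratio with an exact conditional (Clopper-Pearson) 95% interval, an exact conditional odds ratio for pairs, and log2 of (RPKM + 1) ratios at a mean RPKM of at least 1 (Python 3.11.15, scipy 1.17.1). Only the interval of the ratio and the log2 value were tested on simulated reads. Those reads held counting error only, and the changed genes differed by more than any carrier here. With 1 library per condition there was no test. Members, substrate groups, lists and motifs were chosen with earlier results of these data known. 1 member is counted but not reported here. Named were the other SLC25A rows, with full values for 6 substrate groups and for members whose interval left out 1, and the 2 largest changes of each list; other genes were chosen after their values were seen. Positions and promoter windows are from RefSeq (GRCh38.p14), matched by symbol. Alternatives were pseudocounts, 3 rescalings, filters, folds, a 99% interval, means and removal of a length trend.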

Additional observations from a re-analysis of the deposited data

How the results depend on the processing

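No paired analysis was possible because each condition had 1 library, and no replicate could be left out. Of 296 log2 values of single members under alternatives, 294 stayed within the member's counting interval and 0 of those with an interval off 1 changed sign; the other 2, SLC25A5 (-0.06) and SLC25A6 (0.08), lay outside it after the length trend was removed. A log2 limit of 0.32 in place of 1 gave 2 higher and 1 lower members. With a 99% interval, 4 members lay above 1 and 2 below, while those of SLC25A1, SLC25A12, SLC25A15, SLC25A16, SLC25A24 and SLC25A28 included 1. The share of all genes at 99% was not computed, so these counts cannot be read as high or low. The iron median was 0.18 with a pseudocount of 5, and the citrate and dicarboxylate median 0.088 without the length trend. The coenzyme and vitamin median was -0.031 when the minimum was a mean of 5 RPKM and -0.00079 when averaged, against 0.08; the first of these leaves fewer genes. The cause of the other shifts was not tested. Rescaling put the median of all genes between -0.01 and 0.01. Depth limits members under 50 reads, such as SLC25A42, SLC25A35 and SLC25A27, whose intervals span ratios from 0.638 to 2.12.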
